A study of Homo sapiens with 2 samples.

Results

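The genes of splicing, RNA helicases and mRNA export were examined in A549 cells, an established human lung adenocarcinoma line, 24 hours after transfection with an siRNA against p62/SQSTM1 (siP62) or with a control siRNA (siCONTROL). An siRNA guides the cell's own RNA interference machinery to cut mRNAs of matching sequence, and p62 is a ubiquitin-binding receptor of selective autophagy. Each condition was read on 1 Affymetrix whole-transcript array, so no difference below carries a replicate error and no test between the conditions was possible. How many siRNAs were used, and their sequences, the sources used here do not give. The members were the genes whose symbol in the platform annotation begins with SRSF, SF3A, SF3B, SNRP, HNRNP, THOC, DDX, DHX, LSM, PRPF or NXF, followed by a number where the name calls for one, without DDX58 and DDX60. The rule found 121 genes of the 14884 named in the annotation of the array, none of them under an SF3A or SF3B name. Of these, 107 are protein coding in RefSeq, 12 are transcribed pseudogenes and 2 are long noncoding RNAs that carry a helicase's name, DDX11-AS1 and DDX19A-DT.

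Splicing removes introns from pre-mRNA. Small nuclear ribonucleoproteins (snRNPs), most of them built on a ring of Sm proteins, recognise the splice sites. The U4/U6.U5 tri-snRNP then joins them and carries the catalytic core. RNA helicases of the DEAD box (DDX) and DEAH box (DHX) classes use ATP to drive the rearrangements between these steps, and other members of both classes work in ribosome assembly, translation and mRNA decay. SR proteins (SRSF genes) mostly favour the use of nearby splice sites, while heterogeneous nuclear ribonucleoproteins (HNRNP genes) coat nascent RNA and often oppose them. The THO complex couples transcription and splicing to export, which NXF proteins and the helicase DDX19 carry out at the nuclear pore.

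The values were log2 probe set summaries, and a difference is the siP62 value minus the siCONTROL value. SQSTM1, the target of the siRNA, had 7.30 in siP62 cells against 8.64 in siCONTROL cells, a difference of -1.34 that left 39.5% of the control level. Genes with at least 1 value of 5.35 or more, the median of all values of named probe sets, were kept. These were 7896 genes with a median difference of 0.04 and a robust SD (scaled median absolute deviation) of 0.22 over genes. In 20 bins of genes of like mean level the robust SD ranged from 0.15 to 0.39. This spread is one across genes and says nothing of how replicates would vary. The epithelial markers EPCAM, KRT8, KRT18 and KRT19 were all kept, and the endothelial markers PECAM1 and VWF were not. CD14 and CD68, fixed as markers of leukocytes, were kept with differences of -0.04 and -0.06. LUM, fixed as a marker of fibroblasts, had 5.49 in siP62 cells and 5.02 in siCONTROL cells. Its difference was 0.47, and it passed the limit through its siP62 value alone. The fibroblast marker DCN had 2.13 in siP62 cells and 2.18 in siCONTROL cells, below the limit, and other markers are not analysed here. Their part in the results was not tested. The array shows RNA from a whole culture, in which fewer cells of one state and less RNA per cell cannot be told apart.

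The promoters of 6 members are shown because their genes are among the pairs and extremes described below. No promoter sequence was at hand for THOC7, and that of DDX21 is not shown. THOC5 was the highest of the THO genes, DDX19A and DDX19B are adjacent copies with unlike differences, DHX8 and DDX10 had the highest differences among the kept protein coding DHX and DDX genes, and DDX50 had the lowest of the DDX genes. Each is the 250 bases before the gene's start in RefSeq, read 5′ to 3′ on the gene's strand, at chr22:29553656-29553905 (minus strand), chr16:70346653-70346902, chr16:70294527-70294776, chr17:43483725-43483974, chr11:108664819-108665068 and chr10:68901065-68901314 (all plus strand) of GRCh38.p14. Capitals mark matches on either strand to TGACNNNGC, the core of the antioxidant response element bound by NRF2, to TGACGTCA, the cAMP response element, to CCGGAAG, a site of ETS factors, and to CCAAT.
THOC5: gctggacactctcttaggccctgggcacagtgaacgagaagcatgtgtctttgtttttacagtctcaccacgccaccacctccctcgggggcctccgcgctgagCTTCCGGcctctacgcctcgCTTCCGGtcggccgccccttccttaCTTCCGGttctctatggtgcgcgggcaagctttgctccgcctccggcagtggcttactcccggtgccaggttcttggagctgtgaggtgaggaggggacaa
DDX19A: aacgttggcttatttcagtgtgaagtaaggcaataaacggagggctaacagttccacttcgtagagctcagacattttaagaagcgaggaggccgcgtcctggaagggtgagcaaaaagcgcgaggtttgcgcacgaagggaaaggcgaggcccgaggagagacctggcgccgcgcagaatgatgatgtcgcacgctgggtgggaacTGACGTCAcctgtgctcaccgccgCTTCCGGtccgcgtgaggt
DDX19B: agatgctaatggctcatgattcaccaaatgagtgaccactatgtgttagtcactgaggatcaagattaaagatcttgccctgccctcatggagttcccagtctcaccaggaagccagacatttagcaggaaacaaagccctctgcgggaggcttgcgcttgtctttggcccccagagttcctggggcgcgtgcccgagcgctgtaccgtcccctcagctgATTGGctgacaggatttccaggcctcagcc
DHX8: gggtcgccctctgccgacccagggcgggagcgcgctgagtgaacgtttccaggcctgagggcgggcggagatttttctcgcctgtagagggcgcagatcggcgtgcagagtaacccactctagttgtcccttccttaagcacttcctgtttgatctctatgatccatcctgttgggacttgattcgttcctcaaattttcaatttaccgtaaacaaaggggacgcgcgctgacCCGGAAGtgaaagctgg
DDX10: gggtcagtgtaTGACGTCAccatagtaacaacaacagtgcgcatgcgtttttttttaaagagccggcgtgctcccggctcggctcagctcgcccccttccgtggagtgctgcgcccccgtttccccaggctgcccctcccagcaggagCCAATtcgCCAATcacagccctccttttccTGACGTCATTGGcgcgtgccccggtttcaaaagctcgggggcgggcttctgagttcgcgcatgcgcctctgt
DDX50: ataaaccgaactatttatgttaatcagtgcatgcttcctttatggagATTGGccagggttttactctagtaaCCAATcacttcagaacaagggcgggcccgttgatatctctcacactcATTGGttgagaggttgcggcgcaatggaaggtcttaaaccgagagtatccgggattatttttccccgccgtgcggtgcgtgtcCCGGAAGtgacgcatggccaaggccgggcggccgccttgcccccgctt

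The THOC5 promoter held 3 matches to CCGGAAG, at 146 to 140, 126 to 120 and 101 to 95 bases before the start. Those of DDX19A, DHX8 and DDX50 each held 1. The promoter of DDX19A also held TGACGTCA, 43 to 36 bases before the start, whereas that of its neighbour DDX19B held 1 CCAAT and neither of these motifs. DDX10 had 2 matches to TGACGTCA and 3 to CCAAT, of which 1 overlaps a TGACGTCA. None of the 6 held TGACNNNGC. Over the 97 protein coding members with an entry, 25 (25.8%) held CCGGAAG, against 11.7% of all 15842 protein coding promoters of the same length. For CCAAT the shares were 51.5% and 34.1%, for TGACNNNGC 11.3% and 11.5%, and for TGACGTCA 6.19% and 2.28%. Among kept members the median difference was 0.08 over 22 genes with CCGGAAG and 0.02 over 59 without it, and -0.02 over 8 with TGACNNNGC and 0.04 over 73 without it. For CCAAT it was 0.00 over 41 with it and 0.06 over 40 without it, and for TGACGTCA 0.13 over 6 with it and 0.01 over 75 without it. The 6 genes with TGACGTCA were DDX10, DDX19A, DDX28, DDX51, THOC1 and DHX36, with differences of 0.48, 0.44, 0.17, 0.09, 0.04 and -0.04. A match is a description of the letters and not a bound site.

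As a group the members differed little between the arrays. The filter kept 97 of the 121 and removed 24, of which 6 were DDX, 6 HNRNP, 5 NXF, 4 SNRP, 2 SRSF and 1 DHX genes. The kept members' median difference was 0.03, against 0.04 over all kept genes. It lay below 0, at -0.01, once the median of all genes was subtracted. Of the kept members 53 (54.6%) were higher and 40 (41.2%) lower in siP62 cells, beside 55.5% and 41.8% of all kept genes. At least 1.5-fold higher were 4 members (4.12%), where 2.08% of all kept genes were, and 1 member was at least 1.5-fold lower, where 1.60% of all kept genes were. Subtraction of the median difference turned the counts over all genes to 127 higher and 154 lower, against 164 and 126 as deposited, and left those of the members at 4 and 1. Of the 4, 3 were pseudogenes, DDX11L1, DDX11L2 and DDX11L10, and DDX11L2 passed the filter through its siP62 value alone, so the share is not read against that of all genes. With the filter at the 70th percentile of named values 3 of 87 members were 1.5-fold higher. Among the 90 kept protein coding members, 1 was at least 1.5-fold higher (THOC5) and 1 at least 1.5-fold lower (THOC7). THOC7 was the only kept member beyond 2-fold, a size reached on the lower side by 0.228% of all kept genes, and no kept member was 2-fold higher, where 0.165% of all kept genes were. Differences within 0.10 of 0 were found for 39 (43.3%) of the protein coding members and 35.0% of all kept genes. The 35.0%, here and below, is over genes of all levels and is not matched to the levels of the members. In the bin of highest mean level the robust SD was lowest, 0.15.

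**Figure D1:**
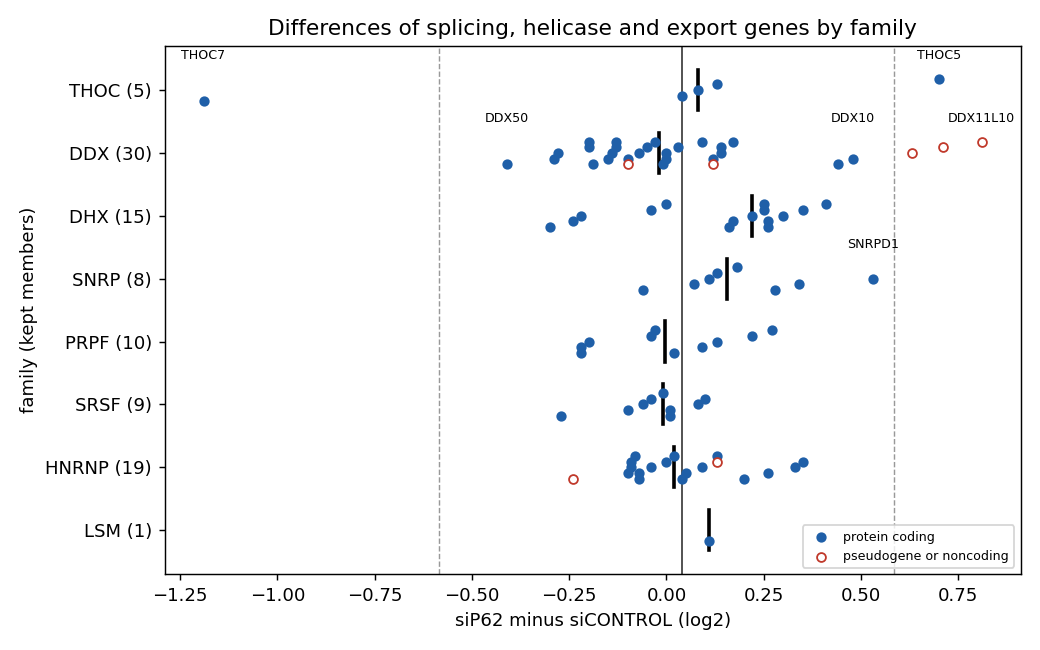
Differences of the 97 kept members (horizontal axis, siP62 minus siCONTROL, log2) by family, with filled points for protein coding genes and open points for pseudogenes and noncoding RNAs. Short black bars are family medians, the solid line is the median of all kept genes (0.04) and the dashed lines mark 1.5-fold; THOC7 at -1.19 stands alone on the lower side, while THOC5 and 3 DDX11L pseudogenes lie beyond the upper line.

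**Figure D2:**
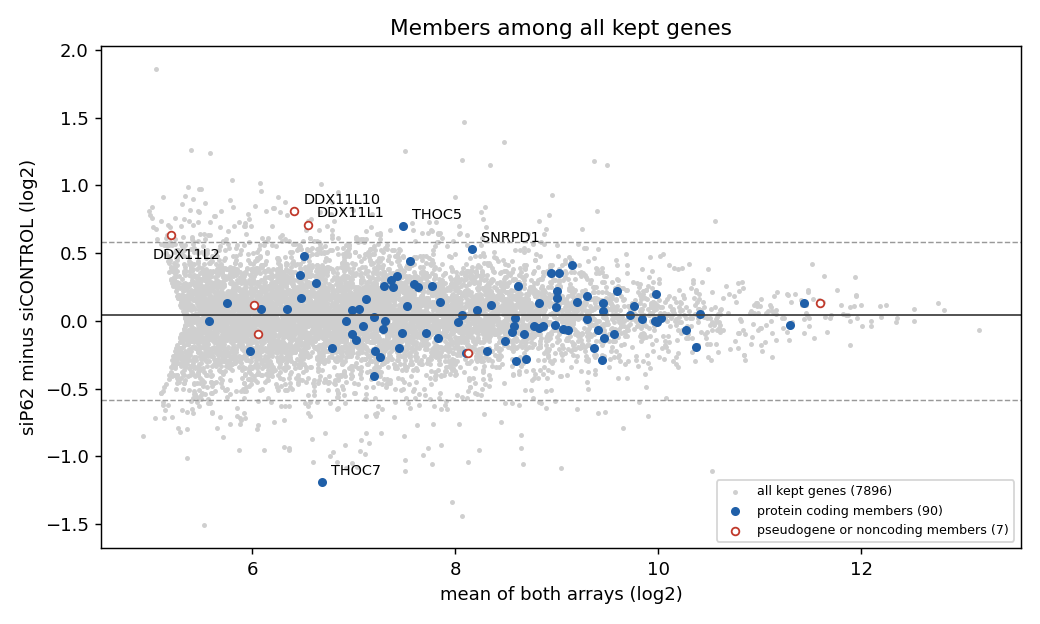
Difference (vertical axis, siP62 minus siCONTROL, log2) against the mean of both arrays (horizontal axis, log2) for all 7896 kept genes in grey, the 90 protein coding members in blue and the 7 pseudogene or noncoding members as open red points. Most members lie between the dashed 1.5-fold lines at every level.

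The THO complex held both extremes among the kept protein coding members. THOC7, a small coiled-coil subunit, had 6.09 in siP62 cells against 7.28 in siCONTROL cells, which is 2.28-fold lower or 43.8% of the control level. In its bin of 395 genes of like mean level, where the robust SD was 0.22, 0 genes had a lower difference. THOC5, the coiled-coil subunit that binds THOC7 within the complex, went the other way. It had 7.83 in siP62 cells and 7.13 in siCONTROL cells, 1.62-fold higher, and 2 genes of its bin had a higher difference. These ranks follow in part from naming both genes for the size of their differences.

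The other THO subunits on the array differed by 0.13 or less. THOC2, the large scaffold subunit, had 8.89 in siP62 cells and 8.76 in siCONTROL cells. THOC6, a WD-repeat protein, had 8.25 in siP62 cells and 8.17 in siCONTROL cells. THOC1 had 8.09 in siP62 cells and 8.05 in siCONTROL cells, a difference of 0.04 that became -0.01 after a loess curve was subtracted. So 4 of the 5 subunits (80.0%) had positive differences, beside 55.5% of all kept genes, with a median of 0.08. THOC5 and THOC7 alone passed 1.5-fold. Each was read by 1 probe set, so their values could not be checked against a further one.

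**Figure D3:**
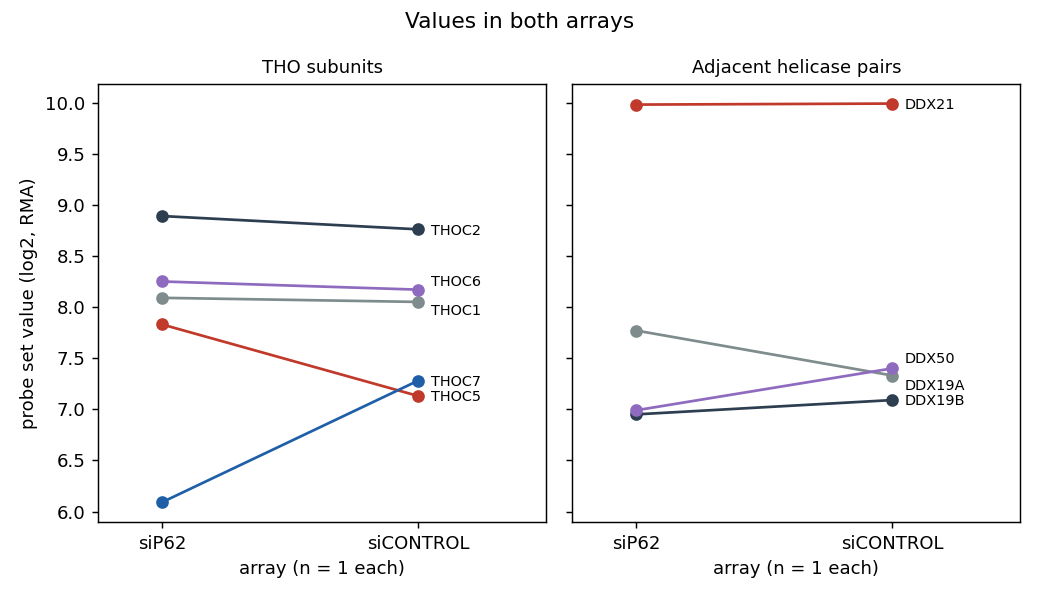
Probe set values (vertical axis, log2) in siP62 cells (left) and the siCONTROL array (right), 1 array each, for the 5 THO subunits and for 4 helicases that form adjacent gene pairs. Levels are to be read within a gene only. THOC5 is higher and THOC7 lower in siP62 cells, the lines of THOC1, THOC2 and THOC6 are nearly flat, and DDX19A and DDX50 differ more than their neighbours DDX19B and DDX21.

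The DDX19 helicases, which strip export factors from mRNA on the cytoplasmic face of the nuclear pore, are encoded by adjacent genes on chromosome 16. DDX19A had 7.77 in siP62 cells and 7.33 in siCONTROL cells, 1.36-fold higher. DDX19B had 6.95 in siP62 cells and 7.09 in siCONTROL cells, a difference of -0.14. The proteins are near-identical copies, and the probes were not checked for cross-hybridisation between the genes. A second adjacent pair, on chromosome 10, encodes the nucleolar helicases DDX50 and DDX21. DDX50 had 6.99 in siP62 cells and 7.40 in siCONTROL cells, the lowest difference of the kept DDX genes at -0.41, whereas DDX21 had 9.98 in siP62 cells and 9.99 in siCONTROL cells.

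The NXF genes carry or resemble export receptors that dock mRNA at the pore. The widely expressed NXF1 is not analysed here. The 5 NXF genes on the array all lay below the filter, with 2.82 on either array for NXF2 and for its copy NXF2B, and 3.29 on either array for NXF3. The pseudogene NXF4 had 2.86 in siP62 cells and 2.95 in siCONTROL cells, and the pseudogene NXF5 had 3.50 in siP62 cells and 4.26 in siCONTROL cells. The difference of NXF5, -0.76, lies between values not shown to be above background.

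The spliceosome helicases among the members differed in both directions. Of 9 with DDX or DHX names, 5 (55.6%) were higher, a share like the 55.5% of all kept genes. The other 4 were lower, and none reached 1.5-fold. SNRNP200 and AQR, spliceosome helicases outside the member names, are not among the 9 and differed by 0.17 and 0.07. DDX46, the human PRP5 that helps U2 snRNP onto the branch site, had 8.56 in siP62 cells and 8.84 in siCONTROL cells. DDX23, the human PRP28 that displaces U1 snRNP, had 7.34 in siP62 cells and 7.54 in siCONTROL cells. DDX42, an SF3B1-binding helicase, differed by -0.29.

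Of the helicases that act later, DHX16, the human PRP2 that activates the spliceosome, had 7.51 in siP62 cells and 7.26 in siCONTROL cells. The 8 probe sets of DHX16 differed by 0.25 to 0.28. Several of them had the same 7.52 in siP62 cells and 7.25 in siCONTROL cells, so they are not independent readings. DHX38, the human PRP16 that remodels the core between both catalytic steps, differed by 0.25. DHX8, the human PRP22 that releases the spliced mRNA, had 9.35 in siP62 cells and 8.94 in siCONTROL cells, 1.33-fold higher, the highest difference of the kept DHX genes. DHX15, the human PRP43 that takes the spent spliceosome apart, had 8.45 in siP62 cells and 8.75 in siCONTROL cells and was the lowest of the kept DHX genes. DHX35 and DDX41, found in spliceosomes at the catalytic stage, differed by 0.16 and 0.12. Each of these differences is at most 2.30 times the robust SD of its level bin.

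Across all of their roles, the DHX genes had the highest median of any family with more than 1 kept member, 0.22 over 15 genes. Of these, 10 (66.7%) were higher, beside 55.5% of all kept genes, 4 lower and 1 equal. Within 0.10 of 0 lay 2 (13.3%), beside 35.0% of all kept genes. Besides DHX8, the highest were DHX40 at 0.35 and DHX37, a nucleolar helicase of small ribosomal subunit assembly, at 0.30. DHX9, which unwinds RNA and RNA-DNA hybrids, had 9.70 in siP62 cells and 9.48 in siCONTROL cells. DHX29, which helps ribosomes scan structured leaders, and DHX34, which acts in nonsense-mediated decay, were on the lower side at -0.24 and -0.22. The median of the family stayed between 0.18 and 0.24 under every alternative tried. DHX58, an RNA sensor of innate immunity, lay below the filter with 4.06 in siP62 cells and 3.53 in siCONTROL cells.

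The protein coding DDX genes lay slightly to the lower side, with a median of -0.05 over 25 kept genes. Of these, 15 (60.0%) were lower, beside 41.8% of all kept genes, 8 higher and 2 equal. DDX10, a nucleolar helicase of small ribosomal subunit assembly, was the highest with 6.75 in siP62 cells and 6.27 in siCONTROL cells, 1.39-fold higher. The abundant transcriptional and splicing cofactors DDX5 and DDX17 differed by -0.19 and -0.03, and DDX6, which represses mRNA in processing bodies, by -0.20. The 14 nucleolar helicases of both classes had a median of -0.005, with 6 higher, 7 lower and 1 equal, and ran from DDX50 to DDX10. The germline helicases DDX4, DDX25, DDX43 and DDX53 all lay below the filter.

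The DDX11L genes are transcribed pseudogenes, mostly near chromosome ends, that resemble a part of the helicase gene DDX11 and make no helicase. DDX11L10 had 6.82 in siP62 cells and 6.01 in siCONTROL cells, a difference of 0.81 that was the highest of all kept members. DDX11L1 had 6.90 in siP62 cells and 6.19 in siCONTROL cells, and 2 genes of its bin had a higher difference. That rank follows in part from naming DDX11L1 for the size of its difference. DDX11L2 had 5.51 in siP62 cells against 4.88 in siCONTROL cells. DDX11L9 went with none of them, with 6.01 in siP62 cells and 6.11 in siCONTROL cells. These copies resemble each other closely and probes can be shared between them, so their differences are not independent and the locus behind the signal is uncertain.

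**Figure D4:**
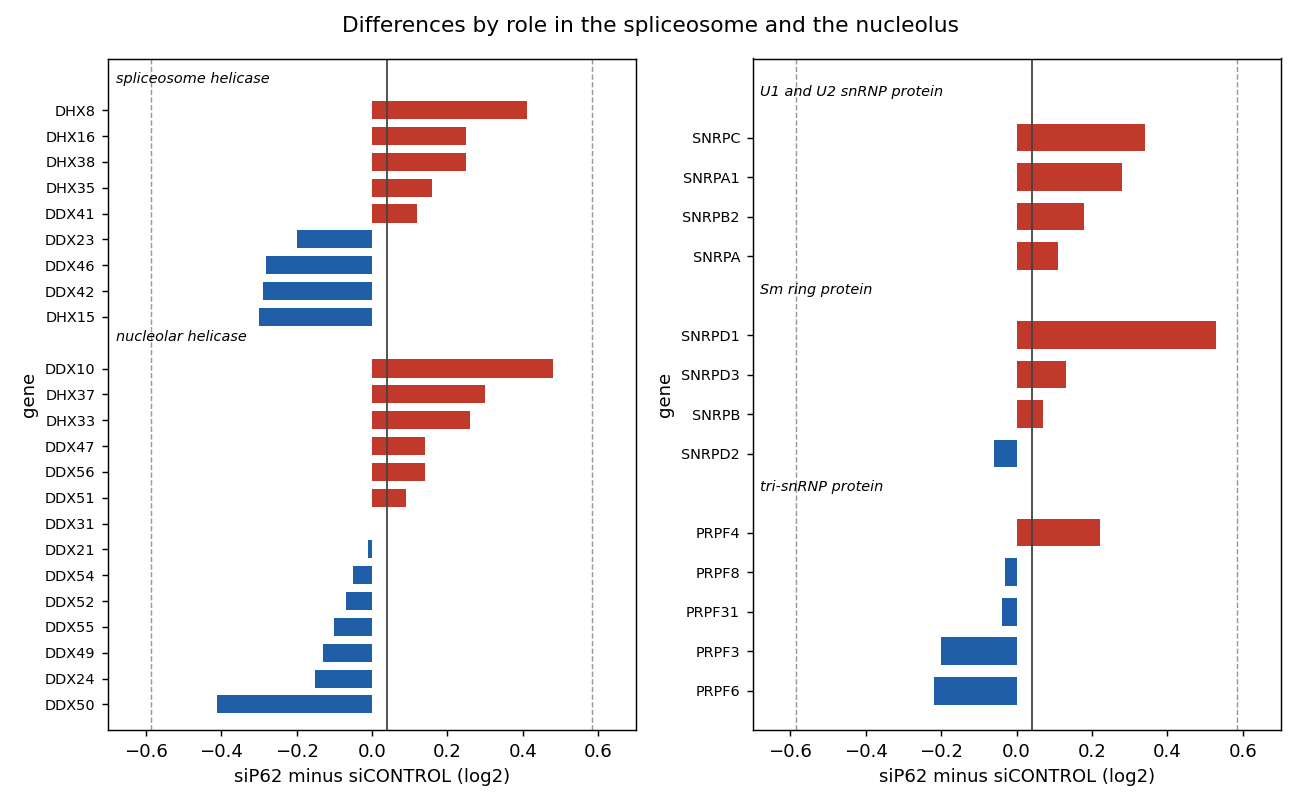
Differences (horizontal axis, siP62 minus siCONTROL, log2) of single kept genes, grouped by role, with red bars for positive and blue bars for negative differences. The solid line is the median of all kept genes and the dashed lines mark 1.5-fold, which no gene shown reaches. The 4 SNRP genes for U1 and U2 proteins are on the positive side; the U1 gene SNRNP70, outside the member names and not drawn, was at -0.15.

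The SNRP genes were mostly higher in siP62 cells by small amounts. The median over 8 kept SNRP genes was 0.16, with 7 higher (87.5%, beside 55.5% of all kept genes) and 1 lower, none of them by 1.5-fold. Of the 5 tri-snRNP proteins among the PRPF genes, 1 was higher and 4 lower (80.0%, beside 41.8% of all kept genes). Of the lower ones, PRPF8 and PRPF31 differed by only -0.03 and -0.04. Among the listed tri-snRNP proteins outside the member names, TXNL4A was lower at -0.65. SNRNP200 (0.17), EFTUD2 (0.10), SART1 (0.28), PPIH (0.26), SNRNP40 (0.23), USP39 (0.11) and SNRNP27 (0.10) were higher. SNU13 lay below the filter, with a difference of -0.09. SNRPD1, an Sm ring protein, was the highest of the kept SNRP genes. It had 8.43 in siP62 cells and 7.90 in siCONTROL cells, 1.44-fold higher, and 10 genes of its bin had a higher difference. That rank follows in part from naming SNRPD1 for its difference. Its ring neighbour SNRPD2 was the lowest, with 9.03 in siP62 cells and 9.09 in siCONTROL cells. SNRPD3 and SNRPB, also of the ring, differed by 0.13 and 0.07. The remaining Sm genes SNRPE, SNRPF and SNRPG lay below the filter, with differences of 0.09, 0.16 and -0.21.

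The U1 proteins SNRPC and SNRPA differed by 0.34 and 0.11 and the U2 proteins SNRPA1 and SNRPB2 by 0.28 and 0.18. SNRNP70, the U1 protein whose name falls outside the member rule, went the other way, with 8.76 in siP62 cells and 8.91 in siCONTROL cells. SNRPC had 6.64 in siP62 cells and 6.30 in siCONTROL cells. The family median ran from 0.11 to 0.16 over the alternatives.

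The PRPF genes had a median of -0.005 over 10 kept genes, 5 on either side. PRPF38A, which joins the spliceosome before activation, was the highest with 7.73 in siP62 cells and 7.46 in siCONTROL cells. PRPF18, a factor of the second catalytic step, had 5.87 in siP62 cells and 6.09 in siCONTROL cells, a difference of -0.22 that it shared with PRPF6 as the lowest. Within the tri-snRNP, the partners PRPF3 and PRPF4 bind each other on U4/U6 and had differences of opposite sign, -0.20 and 0.22. PRPF6, which bridges U5 to U4/U6, differed by -0.22, PRPF31 by -0.04, and PRPF8, the scaffold of the active site, by -0.03 with 11.28 in siP62 cells and 11.31 in siCONTROL cells. PRPF19, a ubiquitin ligase of the spliceosome, differed by 0.02.

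The SR protein genes had close values on both arrays. Of 9 kept SRSF genes, 8 (88.9%) lay within 0.10 of 0, beside 35.0% of all kept genes of any level. Their median was -0.01 with 4 higher and 5 lower. SRSF1 and SRSF2, the best studied SR proteins, had 9.84 and 9.30 in siP62 cells, against 9.83 and 9.29 in siCONTROL cells. SRSF6 was the highest, with 9.04 in siP62 cells and 8.94 in siCONTROL cells. SRSF4 was the exception, with 7.12 in siP62 cells and 7.39 in siCONTROL cells, a difference of -0.27. SRSF12 and the pseudogene SRSF3P2 lay below the filter.

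The HNRNP genes had a median of 0.02 over 19 kept members, 10 higher, 8 lower and 1 equal, and the sign of this median turned under median subtraction, loess centring and quantile normalization. Of these, 12 (63.2%, beside 35.0% of all kept genes) lay within 0.10 of 0, among them HNRNPK, HNRNPU, HNRNPM, HNRNPL and HNRNPA2B1. All of those named but HNRNPA2B1 fall in the bin of highest mean level, where the robust SD was 0.15. HNRNPA0 was the highest with 9.20 in siP62 cells and 8.85 in siCONTROL cells, 1.27-fold higher. HNRNPA1, a repressor of splice site use, had 7.59 in siP62 cells and 7.26 in siCONTROL cells, and HNRNPC, which binds uridine tracts, had 7.90 in siP62 cells and 7.64 in siCONTROL cells. The lowest was the pseudogene HNRNPA1P33, at -0.24. Probes of HNRNPA1 and its many processed copies can share sequence, and the copy HNRNPA1P10 differed by 0.13 on one probe set and -0.06 on the other.

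Below the filter, HNRNPA1L2 had 4.26 in siP62 cells and 2.85 in siCONTROL cells, and HNRNPCL2 had 4.56 in siP62 cells and 3.62 in siCONTROL cells. Their differences of 1.41 and 0.94 are between values not shown to be above background, so no fold is given. LSM12, an RNA-binding protein and the single LSM gene named in the annotation, had 7.58 in siP62 cells and 7.47 in siCONTROL cells.

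Other genes of the same processes were read from 7 lists of 256 genes in all, of which 187 were on the array and 171 kept. Spliceosome proteins whose names fall outside the member rule had a median of 0.11 over 44 kept genes. Of these, 32 (72.7%) were higher, beside 55.5% of all kept genes, and 12 lower. On either side 1 gene (2.27%) was past 1.5-fold, beside 2.08% of all kept genes higher and 1.60% lower. CWC15, a small protein of the catalytic spliceosome, had 6.92 in siP62 cells and 6.18 in siCONTROL cells. TXNL4A, the U5 protein also called DIM1, had 7.53 in siP62 cells and 8.18 in siCONTROL cells, 1.57-fold lower. In the other 6 lists 0 kept genes reached 1.5-fold.

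Export adaptors and nuclear pore genes had a median of 0.10 over 32 kept genes. Of these, 23 (71.9%) were higher, beside 55.5% of all kept genes, and 9 lower. ENY2, a subunit of the TREX-2 export complex and of SAGA, was the highest with 6.39 in siP62 cells and 5.89 in siCONTROL cells, and NUP188 of the pore the lowest at -0.18. The export adaptors ALYREF and CHTOP, which THO helps to load onto mRNA, differed by 0.18 and 0.09, and ZC3H11A and SARNP by -0.15 and -0.14.

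Genes for snRNP assembly had a median of 0.08 over 19 kept genes, from INTS6 of the Integrator complex at -0.30 to USB1, which trims U6 RNA, at 0.42. Cap binding and 3′ end processing genes had a median of 0.03 over 15, from FIP1L1 at -0.22 to EXOSC9, an exosome subunit, at 0.47. Exon junction and nonsense-mediated decay genes had a median of 0.02 over 14, from the decapping enzyme DCP2 at -0.37 to PYM1 at 0.32. PYM1 had 5.39 in siP62 cells and 5.07 in siCONTROL cells, and passed the filter through its siP62 value alone. Splice-site and alternative splicing regulators had a median of 0.005 over 36, from SREK1 at -0.33 to CIRBP, the cold-inducible RNA-binding protein, at 0.58. A further, dimmer probe set took the mean difference of CIRBP to 0.34.

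Kinases that phosphorylate SR proteins had small differences. Their median was -0.07 over 11 kept genes, from CLK4 at -0.25 to CLK3 at 0.11. Of the 11, 7 (63.6%) were lower, beside 41.8% of all kept genes, 3 higher and 1 equal. Within 0.10 of 0 lay 6 (54.5%), beside 35.0% of all kept genes. The median was 0.00 with the filter at the 70th percentile of named values. The SR protein kinases SRPK1 and SRPK2 differed by -0.04 and -0.18.

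**Figure D5:**
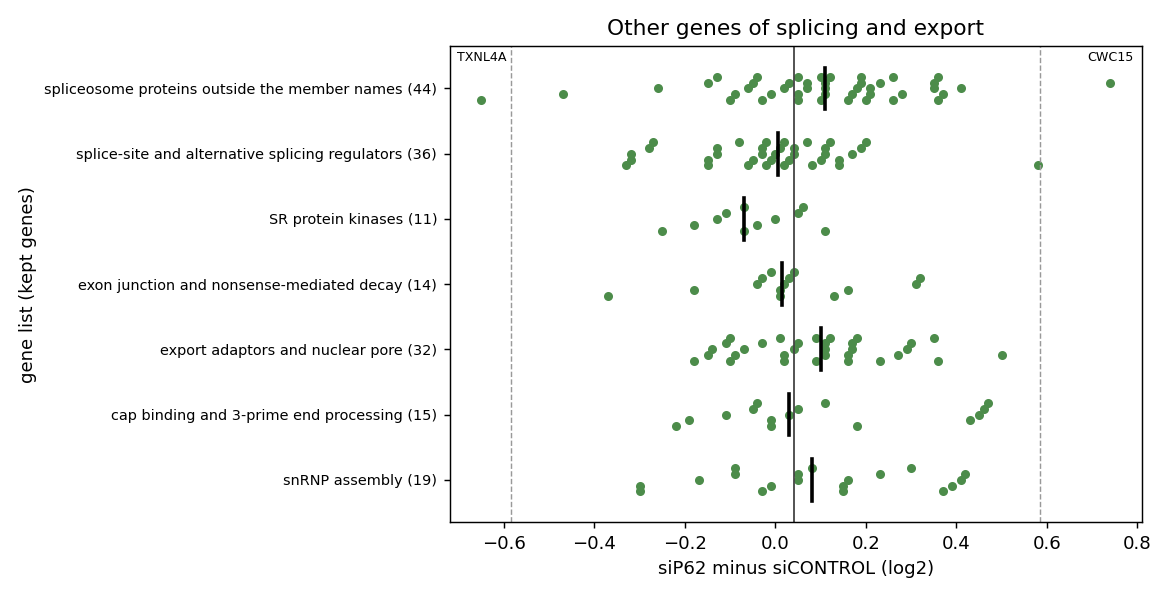
Differences (horizontal axis, siP62 minus siCONTROL, log2) of the 171 kept genes in 7 lists of other splicing and export genes, with list medians as short black bars, the median of all kept genes as a solid line and 1.5-fold as dashed lines. CWC15 and TXNL4A alone lie beyond the dashed lines, on opposite sides.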

How the data were processed

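Total RNA of 2 A549 cultures was read on 1 array per group, from biotinylated cDNA of 100 ng RNA, per the labels' protocols. The authors deposited log2 values for 48226 probe sets; per the submitters' processing notes, they used RMA and, in version 4.0.2.15, Transcriptome Analysis Console. RMA, as commonly defined, makes the distributions of arrays alike, so a shift of all genes one way would not be seen. The sources used here give no genome build, annotation or detection calls. The platform annotation gave 1 symbol for 16098 probe sets; a gene took its probe set with the highest mean. All 121 members matched the RefSeq table of GRCh38.p14, 99 of them its promoter table; 250 bases were searched. Levels are compared within a gene only; precision is limited by the number of arrays.

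As each group had 1 array, no p-value was computed, and genes were counted at 1.5-fold and 2-fold. Named were members past 1.5-fold, each family's and list's extremes, all THOC and NXF genes and SQSTM1; other genes, and the role groups, were chosen after their values were seen. Members and lists were chosen with earlier results of these data known. Counting was tested on simulated data (Python 3.11.15, numpy 2.4.6, pandas 2.3.3, statsmodels 0.14.6). The planted changes were larger than nearly all member differences, so this checks the code and not the counts in these data. Alternatives were centring, quantile normalization, the filter, the probe set and the size limit.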

Additional observations from a re-analysis of the deposited data

How the results depend on the processing

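No paired analysis was possible because each group held 1 array. The count of members at least 1.5-fold higher was 4; it was 6 without a filter, 3 under a stricter filter at the 70th percentile of named values, 1 over protein coding members alone, an alternative chosen after seeing the data, and 0 at a limit of 2-fold. The count at least 1.5-fold lower was 1, and 2 without a filter, where NXF5 joined THOC7. Over all genes, 164 higher and 126 lower became 305 and 318 without a filter and 85 and 82 under the stricter filter. The difference of THOC7 ran from -1.23 to -1.19, that of THOC5 from 0.65 to 0.70 and that of SQSTM1 from -1.39 to -1.34. Median subtraction, loess centring and quantile normalization each turned the sign of 5 of 16 medians, that over all members among them, and the stricter filter turned 1; all of these medians lay within 0.04 of 0. CIRBP alone of the named genes moved by more than the robust SD over genes (0.22), to 0.34 with the mean over probe sets. No replicate and no detection call allows a bound on any single difference.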
